A study of Arabidopsis thaliana with 53 samples.

Results

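Green plants of the variegated line (line 5A of an etoposide mutagenesis in Arabidopsis thaliana) were compared by whether they gave variegated progeny: 3 plants with variegated progeny against 10 plants without. These 13 plants were taken from 53 sequenced plants by the sample labels alone, and the single white plant of the line was left out of the comparison. All 13 were M3 plants, descended by selfing from M1 seedlings grown on medium with 160 µM of etoposide, an inhibitor of topoisomerase II that leaves double-strand breaks in DNA. DMSO plants, descended from M1 seedlings given the solvent, are M2 plants by their labels and M3 plants by the methods of the study. They are quoted as a reference level (n = 9) and entered no test of the groups unless stated. Polyadenylated RNA of leaves was sequenced. The study sequenced the genome of 1 green plant of this line that gave variegated progeny and placed a short deletion in exon 3 of IM. The labels give no genotype at IM for any plant. Under the recessive inheritance described below a green plant with variegated progeny is heterozygous, and the estimated counts do not separate the alleles of a gene.

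IM (IMMUTANS, AT4G22260) encodes the plastid terminal oxidase, which passes electrons from plastoquinol to oxygen in the thylakoid membrane. The oxidase keeps the plastoquinone pool oxidized while carotenoids are made, and plants that lack it have green leaf sectors with normal chloroplasts and white sectors whose plastids lack pigment. The mutation is recessive, so that heterozygous plants are green and segregate variegated offspring on selfing. The gene lies at chr4:11769668-11772599 on the minus strand of TAIR10.1 and its RefSeq transcript has 9 exons. Exon 3, at chr4:11771654-11771747, is 94 bases long and is shown because the study placed the lesion of this line in it. It reads 5′ to 3′ in the direction of transcription, as the reference sequence from RefSeq's genome record, with no base of the deletion marked.

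IM exon 3: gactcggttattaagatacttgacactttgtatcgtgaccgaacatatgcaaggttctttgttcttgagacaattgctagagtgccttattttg

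The groups were not balanced for descent. All 3 plants with variegated progeny came from M2 family 5A_58, whereas the 10 plants without comprised 2 of 5A_58, 4 of 5A_2 and 4 of 5A_3. Family and group cannot be told apart for 8 of the 10 plants without, so the main counts, IM and the gene lists stand beside a fit with M2 family as a term where that fit moves them. In it the contrast rests on 3 against 2 plants of 5A_58 and takes its spread from all 13. Total counts ranged from 46020289 to 50519226 in plants with variegated progeny and from 34250010 to 72347069 in those without. Replicate 2 of the plants with variegated progeny stood apart from the rest: its median Spearman correlation with the other plants was 0.914, against 0.932 to 0.972 for the other 12, and it was alone at the end of the second principal component, which held 19.3% of the variance. The study removed 5 outlier libraries that it does not name, and whether this library was one of them is not known. The main counts, IM and the lists that depend on this plant are therefore also given without it. The sum of 5 leaf mesophyll markers was 14574 CPM, 14907 CPM and 12217 CPM in replicates 1, 2 and 3 with variegated progeny and 11707 to 25601 CPM in those without (CPM, counts scaled to library size, with TMM normalization over all 53 libraries). Markers of seed were at 0 in all 13 plants.

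The first question was whether the level of the IM transcript differed between the groups. IM was at 37.7 CPM, 53.9 CPM and 37.9 CPM in replicates 1, 2 and 3 of the plants with variegated progeny, and ranged from 31.8 to 68.1 CPM with a median of 57.9 CPM in the 10 without. The groups overlapped. Replicates 1 and 3 were lower than 9 of the 10 plants without, replicate 2 lay in the middle, and the lowest of all was replicate 9 of the plants without, which is also of family 5A_58. The mean was 43.2 CPM ± 9.31 (SD, n = 3) with variegated progeny and 55.9 CPM ± 10.9 (SD, n = 10) without. In the fit of all genes IM differed by -0.37 on the log2 scale (SE 0.20, edgeR's quasi-likelihood test, unadjusted p = 0.0889, adjusted p = 0.664), and a two-sided exact permutation test of log2(CPM + 1) gave p = 0.133, where the smallest p the design allows is 0.00699. Less message per cell and fewer cells with the message cannot be told apart in whole leaves.

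By family, IM averaged 53.8 CPM ± 7.67 in 5A_2 (SD, n = 4) and 62.0 CPM ± 5.02 in 5A_3 (SD, n = 4). The 2 plants of 5A_58 without variegated progeny were far apart, at 31.8 and 63.8 CPM. With M2 family as a term the difference in IM was -0.17 (SE 0.27, edgeR, unadjusted p = 0.533), and inside 5A_58 alone the two-sided exact permutation test gave a difference of -0.08 and p = 1, in a design that cannot go below 0.2. Without replicate 2 of the plants with variegated progeny the difference was -0.57 (edgeR, unadjusted p = 0.0272, adjusted p = 0.999). DMSO plants ranged from 49.5 to 61.1 CPM and the white plant was at 12.6 CPM. In the order of the 13 levels a plant of 5A_58 without variegated progeny was lowest, and 2 plants with followed. Replicate 2 with variegated progeny was 7th and the other plant of 5A_58 without was 10th, among plants of 5A_2 and 5A_3. Neighbours in the order differed by less than the spread within the groups.

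**Figure D1:**
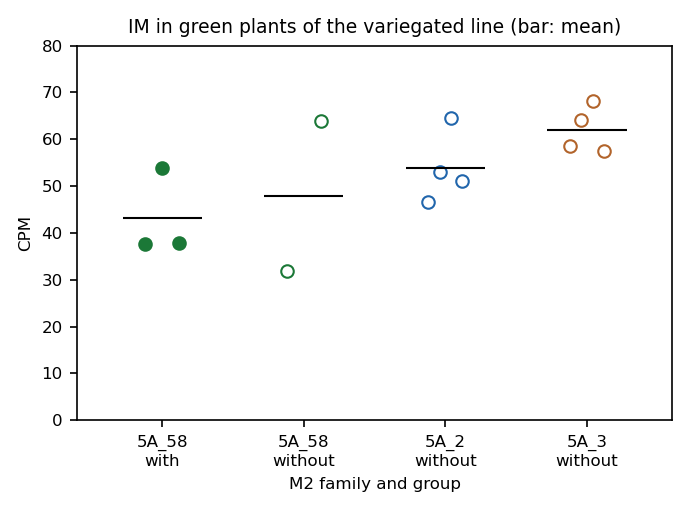
IM in CPM on the vertical axis for the 13 green plants, by M2 family and group. Points are plants and bars are means. The 3 plants with variegated progeny lie at 37.7, 37.9 and 53.9 CPM, inside the range of 31.8 to 63.8 CPM spanned by the 2 plants of 5A_58 without.

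The genes beside IM were examined next. Of the 5 annotated genes on each side, 8 had enough counts to be tested and none was called. AT4G22230 and AT4G22235 were not tested for low counts. AT4G22285 had the smallest p of the neighbours, at 40.7 CPM, 43.6 CPM and 52.9 CPM with variegated progeny and 33.7 to 39.9 CPM without, so that all 3 plants were above all 10. Its difference was 0.32 (SE 0.09, edgeR, unadjusted p = 0.00441, adjusted p = 0.183) and 0.24 with the family term (unadjusted p = 0.0805). DMSO plants had a median of 40.9 CPM for AT4G22285 and reached 53.6 CPM, above all 3 plants with variegated progeny. All 3 plants were above all 10 for 81 of the 19320 genes tested (0.419%). The nearest tested genes on either side differed by less than their errors, AT4G22250 by -0.20 (SE 0.33) and MRB1 by 0.23 (SE 0.25). AT4G22240 (FBN1b), a fibrillin of plastid lipid bodies, differed by -0.09 (SE 0.14), and ISU1, a scaffold protein of iron-sulfur cluster assembly, by 0.06 (SE 0.17). AT4G22280 differed by -1.02 (SE 0.73) and AT4G22290 by -0.47 (SE 0.26), and SOBER1 by -0.30 (SE 0.16), all short of the threshold.

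Across the leaf transcriptome the genes of smallest p were higher with variegated progeny and had their highest levels in replicate 2, followed in most by replicate 3. Of 19320 genes tested, 0 were called at the thresholds of the study (an adjusted p under 0.01 with a log2 difference larger than 1 in either direction, met by 0%) by edgeR's quasi-likelihood test, while 1785 (9.24%) had an unadjusted p below 0.05. DESeq2 called 124 genes (0.642%), of which 120 (0.621%) were higher and 4 (0.0207%) lower with variegated progeny. At an adjusted p below 0.05 with no limit on the fold, edgeR gave 130 genes (0.673%), and all 130 were higher with variegated progeny, 128 of them by more than 1 on the log2 scale. DESeq2 called 93 of the 130.

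The 8 genes with the smallest p of those higher, none of them called by edgeR, shared a pattern across plants. DESeq2 called all of them but COBL8, for which it gave no p. AT4G29780, a gene of no named function here, had the smallest p. It was at 5.27 CPM in replicate 1 with variegated progeny, 1751 CPM in replicate 2 and 128 CPM in replicate 3, against 1.59 to 11.3 CPM (median 3.84) without. Replicate 1 therefore lay inside the range of plants without variegated progeny, and replicates 2 and 3 lay above all 10. DMSO plants reached 42.7 CPM, below replicate 3. The difference was 7.03 (SE 0.92, edgeR, adjusted p = 0.0201).

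AT2G30020 (AP2C1), a protein phosphatase of the PP2C family that acts on stress MAP kinases, was at 11.7, 645 and 122 CPM in replicates 1, 2 and 3, against 6.69 to 18.9 CPM without (median 12). ACS6, an enzyme that makes the precursor of ethylene, was at 11.9, 441 and 62.4 CPM against 4.52 to 16.3 CPM (median 9.29). In both genes replicate 1 was inside the range of the plants without. DMSO plants reached 146 CPM for ACS6, above replicate 3, and 59.6 CPM for AT2G30020, below it. Their differences were 4.45 (SE 0.61) and 4.2 (SE 0.62), each with an adjusted p of 0.0201 in edgeR.

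The Nudix hydrolases NUDT4 and NUDT21, a family that cleaves nucleoside diphosphate derivatives, behaved likewise. NUDT4 was at 4.24, 319 and 25.3 CPM, against 2.72 to 6.98 CPM, and NUDT21 at 8.66, 465 and 61.7 CPM, against 6.32 to 13.0 CPM. COBL8, a COBRA-like protein of the cell surface, was at 5.49, 401 and 15.2 CPM, against 3.26 to 6.15 CPM. AT4G27654 was at 0.0921, 157 and 4.28 CPM, against 0 to 0.616 CPM. In each of these genes replicate 2 was the highest of the 13 plants, replicate 3 the second, and replicate 1 within the range of the plants without. DMSO plants reached 6.4 CPM for AT4G27654, above replicate 3. They stayed below it for NUDT4, NUDT21 and COBL8, at up to 15.4, 40.6 and 13.5 CPM.

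OXI1, a protein kinase that responds to oxidative signals, was the exception among the 8. It was at 2.21 CPM, 7.22 CPM and 3.24 CPM with variegated progeny and 0.0729 to 0.737 CPM without, so that all 3 plants were above all 10. The difference was 3.76 (SE 0.53, edgeR, adjusted p = 0.0201), 3.12 without replicate 2 (unadjusted p = 0.000143) and 3.34 with the family term (unadjusted p = 0.0045). DMSO plants reached 2.54 CPM, above replicate 1.

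**Figure D2:**
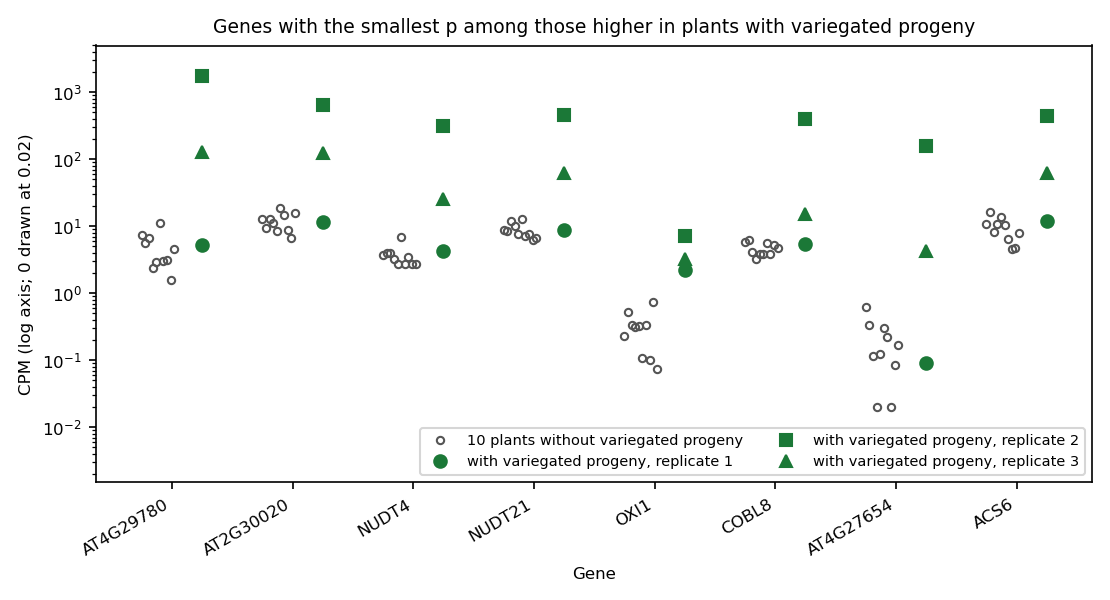
CPM on a log axis for the 8 genes with the smallest p among those higher with variegated progeny. Filled symbols are the 3 plants with variegated progeny and open circles the 10 without, with 0 drawn at 0.02. Replicate 2 is highest for each gene, at 1751 CPM for AT4G29780, and for OXI1 all 3 plants lie above the 10.

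Over the 130 genes the plants were just as uneven. These genes were chosen on this contrast, so the following is a description. The median log2 ratio to the median of the 10 plants without, at a pseudocount of 1 CPM, was 0.03 in replicate 1, 4.73 in replicate 2 and 1.59 in replicate 3, and it ranged from -0.31 to 0.57 among the 10 plants without. Replicate 2 was above the highest of the 10 for 130 of the 130 genes and replicate 3 for 105. Over all genes tested, replicate 2 was above the 10 for 14.4% and replicate 3 for 12.6%. Replicate 1 was above the 10 for 7 of the 130 genes and for 5.01% of all genes. Replicate 2 was the highest of all 13 plants for 126 of the 130, and replicate 3 was the second highest for 101.

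Only 4 of the 130 genes had all 3 plants with variegated progeny above all 10 without, and over all genes tested 81 (0.419%) did so and 46 (0.238%) had all 3 below. Besides OXI1, named above, the 3 others were named after their values were seen. AT5G13210 was at 31, 18.5 and 42.5 CPM in replicates 1, 2 and 3, against 4.14 to 15.8 CPM without. ABCB4, an auxin transporter, was at 45.8, 53.7 and 97.8 CPM against 16.8 to 41.2 CPM, and ALAAT2, an alanine aminotransferase, at 37.9, 31.3 and 42.5 CPM against 15.5 to 25.8 CPM. For AT5G13210 and ALAAT2 replicate 2 was the lowest of the 3, unlike the 8 genes of smallest p. DMSO plants reached 24.5, 55.3 and 46.2 CPM for AT5G13210, ABCB4 and ALAAT2, so they overlapped the plants with variegated progeny in each.

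**Figure D3:**
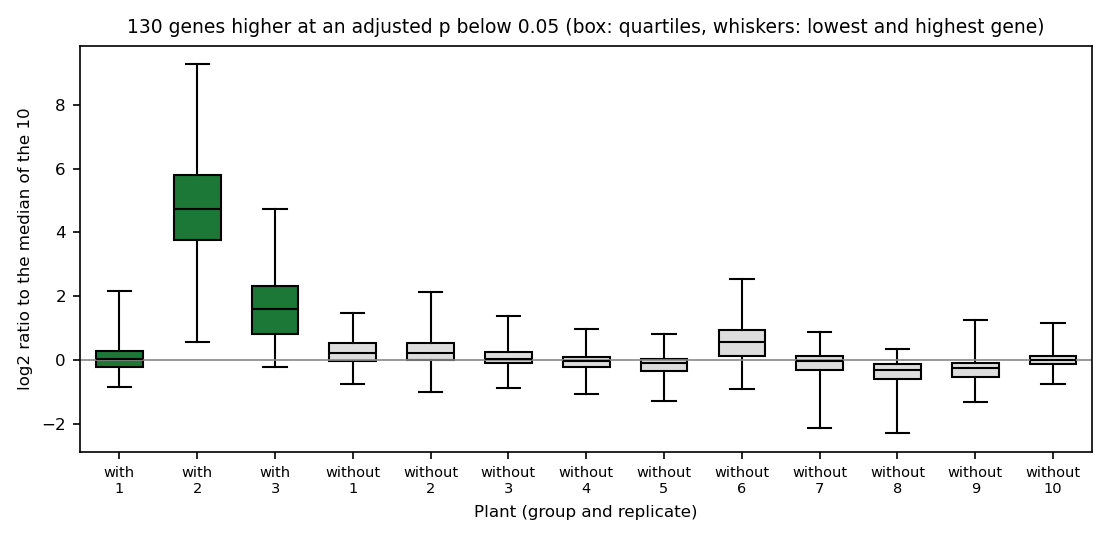
For each of the 13 plants, the log2 ratio of the 130 genes to the median of the 10 plants without variegated progeny. Boxes are quartiles over genes and whiskers the lowest and highest gene. Medians are 0.03, 4.73 and 1.59 in the 3 plants with variegated progeny and between -0.31 and 0.57 in the others.

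Leaving out single plants moved these counts widely. Without replicate 2 of the plants with variegated progeny edgeR gave 0 genes at an adjusted p below 0.05 (787 genes, 4.09%, at an unadjusted p below 0.05, with 0.978% of all genes lower), and the median difference of the 130 went from 3.63 to 1.13, with 126 higher and 73 at an unadjusted p below 0.05 (higher, 3.12% of all genes). Without replicate 1, the plant at the level of those without, 223 genes (1.16%) were called, all higher with variegated progeny, and 126 of the 130 were among them. Without replicate 3 the count at an adjusted p below 0.05 was 234 (1.22%). It was 0 without any 1 of replicates 3, 4, 5, 8 or 10 of the plants without variegated progeny. With M2 family as a term, 0 genes passed an adjusted p of 0.05 and 1001 (5.18%) had an unadjusted p below 0.05. The 130 genes, chosen on this contrast in the same plants, were all higher in that fit, with a median of 3.84. Of them 129 had an unadjusted p below 0.05 (higher, 4.32% of all genes). Both that fit and the fit without replicate 1 keep replicate 2, the highest plant for 126 of the 130. Their counts among the 130 are therefore a description.

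By gene family, chosen after the values were seen, the ERF and DREB transcription factors, which act in ethylene and drought signalling, had 7 of 52 tested members among the 130 (13.5%, against 0.673% of all genes). WRKY factors, regulators of defence, had 3 of 53, and JAZ proteins, the repressors of jasmonate signalling, 2 of 12. Across all 53 WRKY factors the median difference was 0.06, with 31 higher. MYB factors had 1 of 65, genes of the MAP kinase cascade 1 of 52 and XTH genes 1 of 23. The deadenylases CAF1a and CAF1b, which shorten poly(A) tails, were 2 of 3 tested. CAF1a was at 15.6, 776 and 313 CPM, against 14.3 to 44.2 CPM without, and WRKY40 was at 4.94, 1029 and 72.8 CPM, against 1.5 to 23.9 CPM. ORA47, an ERF factor that acts on jasmonate synthesis, was at 1.12, 139 and 23.4 CPM, against 0.127 to 2.45 CPM. DMSO plants reached 45.4 CPM for ORA47, above replicate 3, and 138 CPM for CAF1a, below it. ERF5 was unusual in that replicate 3 was as high as replicate 2, at 38.8 and 35.8 CPM, with 4.14 CPM in replicate 1 and 2.88 to 8.58 CPM without. FC1 (AT5G26030), a ferrochelatase that makes heme, was at 38.9, 1284 and 84.5 CPM, against 33.8 to 63.3 CPM. After replicate 2 was left out, no member of these families had an adjusted p below 0.05, and neither did any other gene tested.

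The 250 bases before the annotated start of each gene in TAIR10.1 were searched on both strands for motifs of stress-responsive promoters. CGCGTT, a core of the rapid stress response element, was in 17 of the 130 promoters (13.1%) and in 2.84% of the 19232 tested genes with a position. The G-box CACGTG was in 11.5% against 7.48%, the W-box TTGACC in 17.7% against 12.2%, and the GCC-box GCCGCC in 4.62% against 1.96%. CGCGTT was in none of the 8 genes with the smallest p. The windows below, from the RefSeq genome, are the 4 genes of smallest p that hold it, shown because these genes were high together, with the motif (in either orientation) in capitals and each 60 bases long in the direction of its gene. They are AT1G66090 at chr1:24601958-24602017 (plus strand), DIC2 at chr4:12686293-12686352 (plus strand), LOX4 at chr1:27308307-27308366 (plus strand) and AT2G25460 at chr2:10835675-10835734 (minus strand).

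AT1G66090: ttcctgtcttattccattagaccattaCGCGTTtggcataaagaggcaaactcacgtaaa
DIC2: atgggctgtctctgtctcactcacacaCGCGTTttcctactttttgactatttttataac
LOX4: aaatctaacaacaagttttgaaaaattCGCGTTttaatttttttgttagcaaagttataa
AT2G25460: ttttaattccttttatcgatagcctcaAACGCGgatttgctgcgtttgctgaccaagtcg

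The genes behind these windows followed the same plants. DIC2, a dicarboxylate carrier of the mitochondrial inner membrane, was at 7.74, 1530 and 297 CPM in replicates 1, 2 and 3 with variegated progeny, against 3.82 to 58.6 CPM without. AT2G25460 was at 0.70, 265 and 1.48 CPM, against 0.453 to 3.49 CPM, so that replicate 2 alone was above the 10. AT1G66090 was at 2.89, 347 and 19.8 CPM, against 2.24 to 9.33 CPM.

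In edgeR no gene was lower with variegated progeny at an adjusted p below 0.05, and 346 (1.79%) were lower at an unadjusted p below 0.05. DESeq2 called 4 lower genes (0.0207%). Among them were AT3G10020 (DESeq2 adjusted p = 0.00725), AT4G10150 (0.00956) and MYB111 (0.00686), whose levels are given below. The gene with the smallest p of those lower was AT3G10020, at 22.9, 24.1 and 17.2 CPM with variegated progeny, all below the 26.1 to 61.5 CPM of plants without. It differed by -1.04 (SE 0.25, edgeR, adjusted p = 0.0879), by -1.14 without replicate 2 and by -0.47 with the family term (unadjusted p = 0.0835). AT1G67050 differed by -0.89 (SE 0.22, adjusted p = 0.107), AT3G53440 by -0.76 (SE 0.20, adjusted p = 0.134) and AT1G67900 by -0.56 (SE 0.16, adjusted p = 0.154). AT1G12080 differed by -1.34 (SE 0.37) and OFP3, an ovate family protein that represses transcription, by -1.75 (SE 0.45). Of the 8 genes with the smallest p among those lower, 6 had all 3 plants below all 10, the exceptions being AT1G67900 and AT2G33000. These 8 were chosen by their p in this contrast, so the count is a description. Over all genes tested, 46 (0.238%) had all 3 plants below all 10. DMSO plants were above all 3 plants with variegated progeny for AT3G10020 (40.1 to 76 CPM) and AT1G67050 (9.59 to 20.2 CPM). They overlapped those plants for the other genes among these 8, reaching down to 2.98 CPM for AT3G53440 and 2.74 CPM for AT1G12080. AT4G10150 was at 0.203, 0.0434 and 0.0672 CPM against 0.280 to 0.764 CPM, and AT2G33000 was at 0, 0.0217 and 0 CPM against 0 to 0.368 CPM, at levels of a few counts for each plant.

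Gene lists were then read by counts and medians, without a set test, against the median of all genes tested (-0.02). Among 24 genes whose mutants are variegated or that modify variegation, 14 were higher and 10 lower, the median was 0.02, and 0 had an unadjusted p below 0.05. IM had the smallest p of the list. VAR2 and VAR1 (FTSH2 and FTSH5), the thylakoid proteases whose loss also gives variegated leaves, differed by 0.07 and 0.02, and their partners FTSH1 and FTSH8 by 0.10 and -0.01. LCD1 differed by -0.21 and CUE1, a phosphoenolpyruvate transporter of the plastid envelope, by -0.24. With the family term 22 of the 24 were lower, with a median of -0.15, and again 0 had an unadjusted p below 0.05.

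Of the other oxidases, AOX1A, the stress-responsive alternative oxidase of mitochondria and a relative of the plastid enzyme, was higher with variegated progeny. It was at 53.4 CPM, 120 CPM and 91.5 CPM in replicates 1, 2 and 3, against 23.8 to 60.5 CPM without (median 38.9). Replicates 2 and 3 were above all 10 and replicate 1 was above 9 of them, and the white plant was at 45.2 CPM. DMSO plants were at 28.3 to 74 CPM, so they reached above replicate 1. The difference was 1.17 (SE 0.24, edgeR, adjusted p = 0.0433), short of the threshold for a call, 0.88 without replicate 2 (unadjusted p = 0.00494) and 1.16 with the family term (unadjusted p = 0.0103). DESeq2 called AOX1A (adjusted p = 0.00322). It was the only 1 of the 11 tested members of its list with an unadjusted p below 0.05, a share near the 9.24% of all genes. NDC1, an NAD(P)H dehydrogenase that feeds electrons to plastoquinone, differed by 0.33 and PGR5, a protein of cyclic electron flow, by -0.12.

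**Figure D4:**
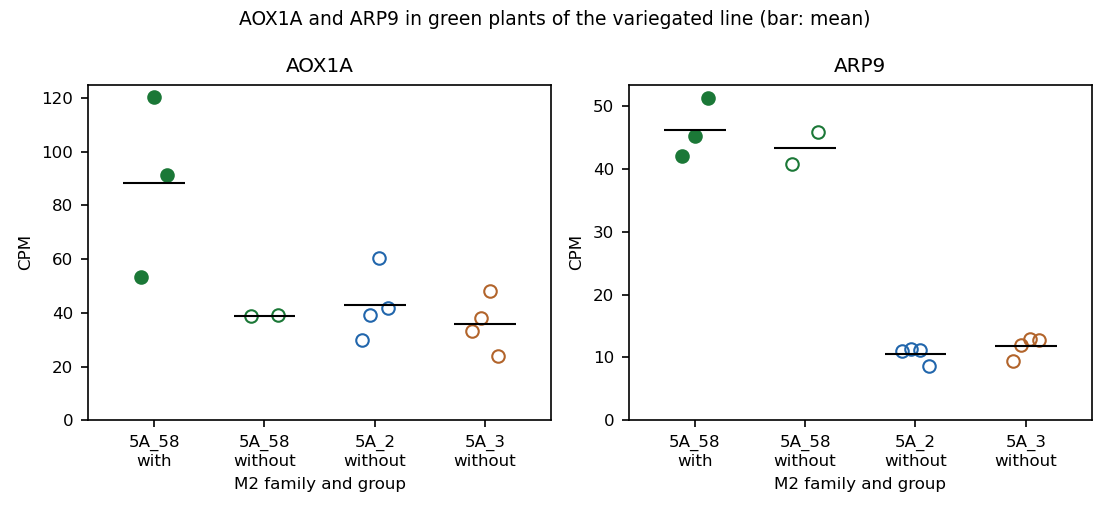
AOX1A and ARP9 in CPM for the 13 green plants by M2 family and group, with points for plants and bars for means. AOX1A lies at 53.4, 120 and 91.5 CPM in the plants with variegated progeny, and ARP9 lies above 40.7 CPM in every 5A_58 plant and at or below 13.0 CPM in every plant of 5A_2 and 5A_3.

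ARP9, an actin-related protein, showed the size that a difference between families can take. It was at 42.1, 45.2 and 51.3 CPM in the plants with variegated progeny and at 40.7 and 45.9 CPM in the 2 plants of 5A_58 without, against 8.66 to 13.0 CPM in the 8 plants of 5A_2 and 5A_3. The white plant, also of 5A_58, was at 35.9 CPM and DMSO plants at 9.81 to 15.1 CPM. Among plants without variegated progeny, ARP9 differed by 1.99 (SE 0.13, edgeR, adjusted p = 0.000106) between 5A_58 and the mean of 5A_2 and 5A_3. It was the only gene called in that contrast of families (0.00518% of genes tested). Between plants with and without variegated progeny it differed by 1.39 (SE 0.48, unadjusted p = 0.0122, adjusted p = 0.282), and with the family term by 0.07 (SE 0.17).

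Jasmonate genes, which respond to wounding, had the highest list median. Of 18 tested, 10 had an unadjusted p below 0.05, all higher, against 7.45% of all genes, and the list median was 1.72. LOX4, a lipoxygenase at the head of jasmonate synthesis, was at 10.9, 1479 and 36.3 CPM with variegated progeny and 7.53 to 34.9 CPM without, and differed by 4.83 (SE 0.84, edgeR, adjusted p = 0.027). JAZ1 was at 26.5, 706 and 69.9 CPM against 8.97 to 53.6 CPM and JAZ5 at 9.93, 199 and 11.6 CPM against 1.97 to 12.2 CPM, with adjusted p of 0.0335 and 0.0291. DMSO plants reached 120, 103 and 27.5 CPM for LOX4, JAZ1 and JAZ5, above replicate 3 in each. Replicate 2 was far above the other 2 plants with variegated progeny in each. Without it the list median was -0.22 and 12 of the 18 genes were lower, whereas with the family term, which keeps it, the median was 1.84.

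VSP1, a vegetative storage protein that jasmonate induces, did not follow replicate 2. It was at 41.3 CPM in replicate 1 and at 2.45 and 2.65 CPM in replicates 2 and 3, against 0 to 8.43 CPM without, and was chosen after its values were seen. Replicate 1 alone was above the 10.

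High light and oxidative stress genes comprised 17 tested, of which 6 were higher at an unadjusted p below 0.05 and 0 lower (7.45% and 1.79% of all genes), while the list median was -0.02, and 0.83 with the family term. ZAT10, a zinc finger repressor of stress responses, was at 14.6, 867 and 279 CPM, against 7.91 to 58 CPM without, and differed by 4.08 (SE 0.66, adjusted p = 0.0214). RRTF1 (ERF109), a redox-responsive ERF factor, was at 0.479, 890 and 8.11 CPM, against 0.0168 to 2.37 CPM, with a difference of 8.72 (SE 1.45, adjusted p = 0.0232). ZAT12 was at 9.12, 138 and 34.4 CPM, against 0.999 to 18.4 CPM. DMSO plants reached 20.5 CPM for RRTF1, above replicate 3, and 196 CPM for ZAT10, below it. The copper superoxide dismutases CSD1 and CSD2 differed by -0.39 and -0.61, neither with an unadjusted p below 0.05. Without replicate 2 the genes higher at an unadjusted p below 0.05 (3.12% of all genes) were ZAT10, ZAT12, OXI1 and UGT74E2, a glucosyltransferase.

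Cold and touch genes had 12 of 14 higher, a median of 0.65 and 4 higher at an unadjusted p below 0.05 (7.45% of all genes). TCH4, a xyloglucan hydrolase of the wall that touch induces, was at 3.59, 1450 and 14.2 CPM, against 1.40 to 73.8 CPM without, and TCH2, a calmodulin-like protein, at 22.3, 379 and 70.4 CPM, against 11.9 to 78.8 CPM. CBF2, a factor of cold acclimation, was at 0.313, 10.9 and 2.2 CPM, against 0.0211 to 1.03 CPM. DMSO plants reached 203, 121 and 3.2 CPM for TCH4, TCH2 and CBF2, above replicate 3 in each. For TCH4 and TCH2 only replicate 2 was above all 10. Their adjusted p were 0.199 for TCH4, 0.0906 for TCH2 and 0.0526 for CBF2 in edgeR, and the list median was -0.15 without replicate 2. Of heat shock genes, 1 of 11 tested was higher at an unadjusted p below 0.05, a share near that of all genes, and the list median was -0.33, -0.61 without replicate 2 and 0.19 with the family term. DREB2A, a drought and heat factor, differed by 3.03 (SE 0.57, adjusted p = 0.0349) and by 0.67 without replicate 2.

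**Figure D5:**
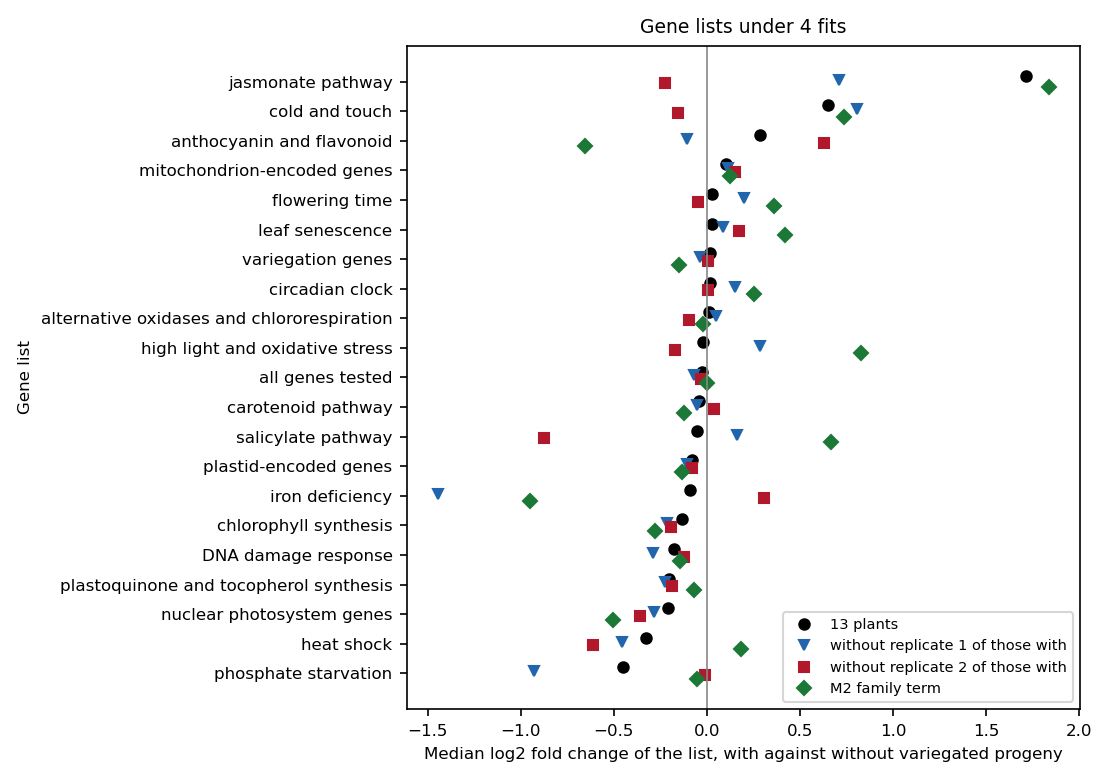
Median log2 fold change of each gene list, with against without variegated progeny, on the horizontal axis under 4 fits. Symbols stand for all 13 plants, for the fits without replicate 1 or 2 of those with variegated progeny and for the fit with M2 family as a term. The jasmonate median is 1.72 with all plants and -0.22 without replicate 2, and the medians of photosystem genes are below 0 in all 4.

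Photosynthesis genes encoded in the nucleus had a median below that of all genes, of which 10421 of 19320 were lower. Of 34 subunits and antenna proteins of the photosystems, 33 were lower and 1 higher, the median was -0.21, and 0 had an unadjusted p below 0.05. The median was -0.36 without replicate 2, when 34 of 34 were lower, and -0.50 with the family term, when 34 of 34 were lower and 7 had an unadjusted p below 0.05 (0.859% of all genes did in that direction). It was -0.03 without replicate 3, with 22 lower. PSAD-1, a subunit of photosystem I that binds ferredoxin, was at 803, 719 and 603 CPM, against 637 to 1206 CPM without, so that only replicate 3 was below the 10. LHCB1.2, an antenna protein of photosystem II, was at 394, 231 and 82.1 CPM, against 86.3 to 1009 CPM; antenna paralogs are nearly identical, and reads can be split among them. The summed mesophyll markers given above were also below the median of the plants without (17621 CPM) in all 3 plants, and their part in these values was not tested. The 68 tested plastid-encoded genes had a median of -0.08, and 1 was lower at an unadjusted p below 0.05; these RNAs mostly lack poly(A) tails, so the libraries hold few of them.

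Chlorophyll synthesis genes were lower in 20 of 23, with a median of -0.13, -0.19 without replicate 2 and -0.28 with the family term. GUN4, which activates magnesium chelatase, was at 47.5, 20.01 and 24.4 CPM, against 26.7 to 72.9 CPM without, and differed by -0.87 (SE 0.30, adjusted p = 0.271). CRD1, a cyclase of the pathway, was at 173, 135 and 122 CPM, against 145 to 268 CPM. In both genes replicates 2 and 3 were below all 10 and replicate 1 was inside their range. HEMA2, a glutamyl-tRNA reductase, was at 16.3, 172 and 21.7 CPM, against 15.6 to 32.9 CPM, and was high in replicate 2 alone. Carotenoid genes, whose desaturases depend on the plastoquinone pool that IM oxidizes, had 7 of 17 higher and a median of -0.04, and 2 of 17 higher with a median of -0.13 with the family term. Of these BCH2, a carotene hydroxylase, had the smallest p, at 0.442, 2.58 and 1.19 CPM against 0.154 to 1.16 CPM (adjusted p = 0.432). All 6 genes of plastoquinone and tocopherol synthesis were lower, with a median of -0.20, and 0 had an unadjusted p below 0.05. With the family term 4 of the 6 were lower and the median was -0.07. HPD, the enzyme that makes homogentisate, had the smallest p among them, at 21.6, 21.5 and 41.9 CPM against 15 to 234 CPM.

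Iron and phosphate genes varied within each group. The iron-deficiency factor bHLH38 was at 95.3, 1.95 and 0.369 CPM in replicates 1, 2 and 3 with variegated progeny and from 0.107 to 203 CPM without, and PYE, a regulator of the same response, at 69.9, 16.8 and 23.2 CPM, against 8.03 to 62.4 CPM. Replicate 1 was thus high and the other 2 low, within or near the spread of the plants without. The 9 iron-deficiency genes had a median of -0.09 with all plants and -1.45 without replicate 1, when 9 of 9 were lower. Without replicate 2 or replicate 3 all 9 were higher, with medians of 0.31 and 0.30, and with the family term all 9 were lower, with a median of -0.95. Of 11 phosphate starvation genes 9 were lower, with a median of -0.45. The median was -0.01 without replicate 2, with 6 lower, and -0.05 with the family term, with 7 lower. MGD3, a galactolipid synthase, had the smallest p (unadjusted p = 0.271).

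Other lists held few genes that stood apart. Of 16 tested salicylate genes, 8 were higher and 8 lower, with a median of -0.05. Without replicate 2, 15 were lower and the median was -0.87, whereas with the family term 12 were higher and the median was 0.67. CBP60G, a calmodulin-binding factor of salicylate synthesis, had an unadjusted p of 0.00462 at 13.9, 324 and 39.1 CPM, against 8.43 to 88.4 CPM. PR1, a late marker of salicylate signalling, was at 3.92, 0.607 and 0.353 CPM, against 0.06 to 451 CPM. The DNA damage list had 11 of 19 lower and a median of -0.18. Its member of smallest p was SOG1, the factor at the head of the response to DNA breaks, at 13.1, 14.4 and 14.1 CPM against 13.6 to 25 CPM (difference -0.39, unadjusted p = 0.0618). WRKY53, a senescence factor, was at 9.73, 441 and 89.2 CPM, against 7.63 to 64.1 CPM (edgeR, adjusted p = 0.0767). DMSO plants reached 250 CPM, above replicate 3.

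Clock genes were 11 of 21 higher with a median of 0.01, and 15 of 21 with a median of 0.26 with the family term. LNK1 was at 12.6, 9.45 and 22.2 CPM, against 2.81 to 10.8 CPM, and CCA1, a morning oscillator factor, at 3.68, 2.56 and 7.47 CPM, against 1.56 to 3.61 CPM. In both genes replicates 1 and 3 were above all 10 and replicate 2 was not. Neither gene passed the threshold (edgeR, adjusted p = 0.261 for LNK1 and 0.331 for CCA1). Flavonoid genes had a median of 0.29 with all plants, 0.63 without replicate 2 and -0.65 with the family term. F3H, an early enzyme of the pathway, was at 11.1, 3.84 and 13.5 CPM, against 1.1 to 9.64 CPM, and MYB111, its regulator, had 0 counts in all 3 plants with variegated progeny, where a count of 0 allows up to 0.0651 CPM, against 0 to 1.73 CPM without. Of flowering-time genes FUL, a MADS factor, was at 8.73, 28.7 and 19.8 CPM, against 6.82 to 15.9 CPM (adjusted p = 0.289).

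Markers of other tissues were also uneven among these plants. The sum of 8 flower markers was 2.91, 45.4 and 14.6 CPM in replicates 1, 2 and 3 with variegated progeny and 2.19 to 28.6 CPM without (median 3.44), so it too was highest in replicate 2. SEP1 (AT5G15800), a MADS factor of floral organs, made up 37.7 CPM of it in replicate 2, while the flower markers PI and LFY were below 0.1 CPM in all 13 plants. SUC2, of phloem companion cells, was at 358, 623 and 442 CPM, against 285 to 498 CPM. Guard cell markers summed to 51.8 to 56.0 CPM with variegated progeny and 36.8 to 73.1 CPM without. Markers of root reached 0.505 CPM, those of tapetum and pollen 0.263 CPM and those of the shoot meristem 0.107 CPM in the highest plant. The part of these tissues in the results was not tested.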

How the data were processed

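Leaf RNA of 13 green plants of the variegated line was analysed. The authors trimmed reads with Trim Galore and deposited estimated counts from Salmon (Araport11 transcriptome, decoys from Col-CEN). These expected counts are not normalized, and 9.27% of values were not whole and were rounded here. The study removed 5 outlier libraries that its sources do not name, and none was removed here. The authors' own comparison tables (fold changes and p-values of other lines) were not used. Tests used edgeR 4.0.16 in R 4.3.3 (quasi-likelihood test, TMM, Benjamini-Hochberg adjustment, prior count 0.125) on genes that reached 10 normalized counts in 4 or more libraries. Standard errors were obtained by dividing the unshrunk log2 difference by the root of its F statistic, so they restate the test. DESeq2 1.42.0 was an alternative. Permutation tests used scipy 1.17.1. The fit was run on simulated counts with a fixed dispersion and the same fold change in every plant with variegated progeny. Those counts hold no plant far from the rest, so they do not show how the fit behaves here.

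Of 27501 identifiers, 27391 matched RefSeq names of TAIR10.1, and 6 list entries whose symbol did not pair were left out. Named genes were IM, 8 with the smallest p in each direction (none being called by edgeR) and the 5 neighbours on each side of IM. They also included up to 3 members of smallest p in each list and up to 3 genes called in each direction between families. Other genes with values were named after their values were seen. Members and lists were chosen with earlier results of these data known. Replicates are separate plants. Alternatives were other tools, filters, thresholds, samples, M2 family and a replicate block, and each plant left out. The cell type markers were fixed lists.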

Additional observations from a re-analysis of the deposited data

Results flagged for a closer look

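Among the 10 plants without variegated progeny, IM and the 16 genes named for their small p were checked for a single plant far from the rest on the log2(CPM + 1) scale, a check that chance meets in about 1 of 20 groups. IM was lowest in replicate 9, of family 5A_58, at 31.85 CPM. NUDT4 was highest in replicate 6, of family 5A_3, at 6.978 CPM.

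The 130 genes higher with variegated progeny were also high in 2 libraries outside the comparison. The median log2 ratio to the 10 plants without variegated progeny was 3.754 in replicate 4 of the virescent relatives without the phenotype and 2.56 in replicate 2 of the short-internode dwarf relatives without the phenotype. DMSO plants ranged from 0.07 to 1.37, and 7 of the 53 libraries had a median above 1, 3 of them DMSO plants. Of the 130 genes, 127 in the virescent relative and 111 in the short-internode dwarf relative were above the highest of the 10.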

How the results depend on the processing

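The count at the thresholds of the study was 0 with RLE factors, no filter, the filter in 3 libraries, M2 family, 5A_58 plants only and the replicate block, but 124 with DESeq2, 169 with DMSO plants in the fit, 130 at an adjusted p below 0.05 and 128 with the fold limit kept; leaving out single plants gave 0 to 223. At an adjusted p below 0.05 (alternatives chosen after seeing the data) the count of 130 became 268 with DESeq2, 362 with DMSO plants, 0 with M2 family, 0 in 5A_58 alone, and 0 to 538 without single plants (30, 36, 74, 34 and 167 without replicates 1, 2, 7, 9 and 6 of the plants without). The cause was not tested. The replicate block gave 0 at that threshold and -0.34 for IM; deviations of same-numbered plants correlated at -0.07, 0.20 and -0.10, so the numbers do not pair plants. IM stayed lower in every alternative, between -0.57 and -0.15, and was called in none; its permutation difference was -0.36 with either pseudocount. Signs turned for HPD (0.18 with family, 0.19 in 5A_58, 0.39 with the block), PYE (-0.65 with family, -0.64 in 5A_58), MRB1 (-0.046 with family, -0.031 in 5A_58), AT4G22280 (0.065 with family, 0.075 in 5A_58, 0.51 with the block) and AT4G22250 (0.34 with the block). Leaving out single plants also turned PYE (-0.74 to 0.53, lowest without replicate 1 of the plants with) and HEMA2 (-0.24 to 2.08), TCH4 (-1.11 to 5.26) and ISU1 (-0.024 to 0.11), these 3 lowest without replicate 2. Genes of a few counts for each plant, such as AT2G33000, are limited by depth.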
